A study of Mus musculus with 17 samples.

Results

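Adipocyte genes were followed mouse by mouse in kidney RNA sequencing of 17 male mice. The genes were the 9 rows of the expression table, of 22558 used, whose symbol was Adipoq, Fabp4, Plin1, Cfd, Lpl, Ucp1, Cidec, Retn or Lep. All 9 were found. They were taken by gene name. The 3 groups were 5 C57BL/6 wild-type mice given saline (Ctrl), 6 db/db mice given saline (Case) and 6 db/db mice given dapagliflozin at 1.0 mg/kg/day for 6 weeks (Dapa), all followed from 8 weeks of age. The db/db mice were BKS.Cg-Dock7m +/+ Leprdb/J animals, which lack a working long form of the leptin receptor and become obese and diabetic. Dapagliflozin blocks the sodium-glucose cotransporter SGLT2 of the proximal tubule. The controls came from another strain background than the db/db mice, so genotype and strain cannot be told apart in any comparison with Ctrl. Libraries held 13039535 to 17779635 counts. Each library came from 1 mouse, and p-values measure the spread between the mice of a group. RNA came from kidney tissue, and fewer cells of a type and less RNA per cell cannot be told apart in such samples.

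White adipocytes store triglyceride in 1 large droplet and secrete hormones, whereas brown adipocytes burn fat in many mitochondria. Lipoprotein lipase works on the vessel wall, where it frees fatty acids from circulating triglyceride, and fatty acid-binding proteins carry them inside cells. Fat lies around the kidney and fills the renal sinus beside the pelvis. The members fell into 4 roles. Adipoq (adiponectin), Lep (leptin), Retn (resistin) and Cfd (adipsin, a serine protease of the alternative complement pathway) are secreted. Plin1 (perilipin 1) and Cidec (FSP27) coat the lipid droplet. Ucp1 (uncoupling protein 1) releases heat in brown fat mitochondria. Lpl (lipoprotein lipase) and Fabp4 (fatty acid-binding protein 4) handle fatty acids and are also known outside fat, in muscle and heart for Lpl and in endothelial cells and macrophages for Fabp4.

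On mm10, as the file gives them, Adipoq lay at chr16:23146536-23158028 on the plus strand, Plin1 at chr7:79720218-79732903 on the minus strand and Cidec at chr6:113424634-113435760 on the minus strand. Cfd lay at chr10:79890853-79892656, Lep at chr6:29060220-29073877, Retn at chr8:3655770-3660110 and Ucp1 at chr8:83290348-83298456, all on the plus strand. Lpl lay at chr8:68880491-68907448 on the plus strand and Fabp4 at chr3:10204088-10208576 on the minus strand. Each was protein coding, none overlapped another annotated gene, and at most 1.14% of the 50-base stretches of a member's transcripts (Lpl) also occurred in transcripts of other genes. The 250 bases before the RefSeq start of 4 secreted or brown fat genes are shown, because the proportions of their transcripts differed between mice, as shown further on. Capitals mark the letters CCAAT, TTGCGCAA (a C/EBP palindrome) or AGGTCA (a half-site of PPAR receptors) on either strand, each sequence running from 5′ to 3′ on the strand of its gene.
Adipoq (GRCm38.p6, plus strand, chr16:23146286-23146535): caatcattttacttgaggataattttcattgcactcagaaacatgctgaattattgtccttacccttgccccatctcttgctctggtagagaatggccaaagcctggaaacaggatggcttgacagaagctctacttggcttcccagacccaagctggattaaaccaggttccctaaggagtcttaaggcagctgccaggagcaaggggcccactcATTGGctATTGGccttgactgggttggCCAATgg
Cfd (GRCm38.p6, plus strand, chr10:79890603-79890852): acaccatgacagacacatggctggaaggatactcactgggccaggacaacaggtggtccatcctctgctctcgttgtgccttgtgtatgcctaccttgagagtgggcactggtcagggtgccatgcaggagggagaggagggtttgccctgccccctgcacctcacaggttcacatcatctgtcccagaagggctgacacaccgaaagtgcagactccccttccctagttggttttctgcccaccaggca
Lep (GRCm38.p6, plus strand, chr6:29059971-29060220): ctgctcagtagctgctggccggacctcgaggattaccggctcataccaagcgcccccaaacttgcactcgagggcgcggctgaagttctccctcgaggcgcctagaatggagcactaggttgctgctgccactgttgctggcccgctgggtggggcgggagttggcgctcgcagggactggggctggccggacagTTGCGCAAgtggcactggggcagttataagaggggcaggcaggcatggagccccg
Ucp1 (GRCm38.p6, plus strand, chr8:83290098-83290347): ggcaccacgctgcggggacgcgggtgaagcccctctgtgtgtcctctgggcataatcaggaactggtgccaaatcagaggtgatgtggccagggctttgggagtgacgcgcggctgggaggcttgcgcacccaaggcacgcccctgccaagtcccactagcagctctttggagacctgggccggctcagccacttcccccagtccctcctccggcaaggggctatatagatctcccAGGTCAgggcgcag
CCAAT stood 34, 27 and 7 bases before the Adipoq start, the first pair on the opposite strand, and occurs in 33.8% of 32851 such windows. TTGCGCAA stood 55 bases before the Lep start and occurs in 0.164% of windows. AGGTCA stood 14 bases before the Ucp1 start and occurs in 14.0% of windows. The Cfd window held none of these letters, and none of the 4 windows held TATAAA (12.4% of windows) or the PPAR direct repeat, which contains the half-site (0.0335% of windows). CCAAT was added to the search after the Adipoq sequence had been read. A match is a description of letters and was not tested as a site.

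The 7 members other than Lpl and Fabp4 were close to absent from most kidneys and present in the same few. The Adipoq count was 264 in mouse Ctrl 3, 74 in Dapa 7, 61 in Dapa 11, 21 in Dapa 10 and 2 in Dapa 12. It was 0 in the other 12 mice, which included all 6 Case mice and 4 of 5 Ctrl mice. A count of 0 allows up to 3 counts, which for Adipoq corresponds to an FPKM of 0.105 to 0.144 by library (FPKM: fragments per kilobase of gene scaled by the library's total count). Thus 4 mice held Adipoq above that limit, 1 of 5 in Ctrl, 0 of 6 in Case and 3 of 6 in Dapa. In FPKM the 4 mice had 9.83 (Ctrl 3), 3.11 (Dapa 7), 2.81 (Dapa 11) and 0.927 (Dapa 10). The groups overlapped in every comparison, since each held mice at 0.

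Plin1, the perilipin of adipocyte droplets, had 203 counts in Ctrl 3, 52 in Dapa 7, 17 in Dapa 10 and 58 in Dapa 11. Beyond these, Case 2 had 1 and Case 3 had 2 counts, and the remaining 11 mice had 0. Cidec, which drives fusion of lipid droplets, had 147, 50, 11 and 24 counts in those 4 mice. Cidec was the member with the widest spread of low counts, with 8 in Case 4, 6 in Ctrl 2, 4 in Dapa 8, 3 in Case 3, 3 in Dapa 12, 1 in Ctrl 5 and 1 in Case 2. No Cidec value outside the 4 mice passed an FPKM of 0.154, against 0.238 to 2.68 within them.

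Cfd was the most abundant of the 7 in Ctrl 3. Its FPKM was 52.4 there, 3.79 in Dapa 7, 4.95 in Dapa 11 and 0.689 in Dapa 10, and its counts were 812, 52, 62 and 9. Case 3 had 5 Cfd counts (FPKM 0.332) and Case 6 had 1 (FPKM 0.0609), and the remaining 11 mice had 0. A single Ctrl mouse thus set the Ctrl mean of 10.5 ± 23.4 (SD, n = 5). Retn had 83 counts in Ctrl 3, 28 in Dapa 7, 11 in Dapa 11, 2 in Ctrl 2 and 0 in the other 13 mice, Dapa 10 among them.

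Lep and Ucp1 were ranked differently over the 4 mice. The Lep count was 46 in Dapa 11, 26 in Dapa 7, 4 in Ctrl 3, 1 in Dapa 10 and 0 elsewhere. Its FPKM was 0.968 in Dapa 11, 0.499 in Dapa 7 and 0.0680 in Ctrl 3. Leptin mRNA was therefore highest in 2 treated db/db mice and barely above the 3-count limit in the Ctrl mouse with the most Adipoq. The Ucp1 count was 110 in Dapa 11, 72 in Ctrl 3, 24 in Dapa 7, 11 in Dapa 10, 2 in Dapa 12 and 0 elsewhere. In FPKM, Ucp1 reached 4.94 in Dapa 11, 2.61 in Ctrl 3, 0.982 in Dapa 7 and 0.473 in Dapa 10. Lepr, the receptor of leptin and the gene mutated in db/db mice, was read in every group, with FPKM of 0.464 to 1.93 in Ctrl, 0.659 to 5.40 in Case and 0.417 to 4.85 in Dapa. Counts per gene do not read the altered splicing of the db allele.

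**Figure D1:**
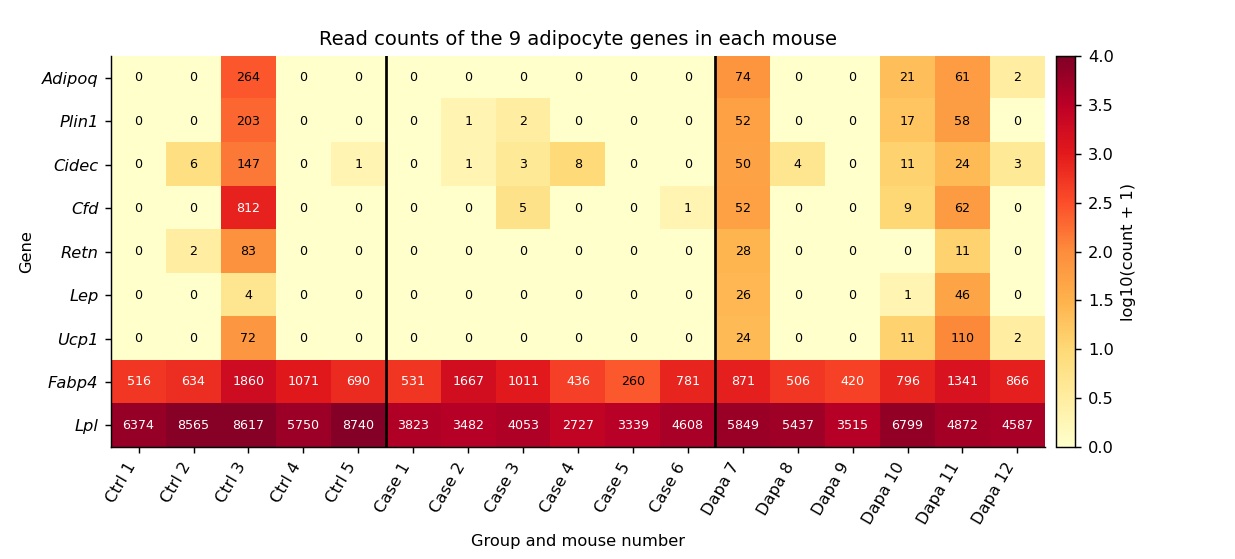
Read counts of the 9 genes (rows) in each of the 17 mice (columns, grouped as Ctrl, Case and Dapa), with the count printed in each cell and colour giving log10(count + 1). The upper 7 rows are coloured in Ctrl 3, Dapa 7 and Dapa 11 and, except for Retn (0 counts) and Lep (1 count), in Dapa 10, and hold 0 to 8 counts in the other mice, whereas Fabp4 (260 to 1860 counts) and Lpl (2727 to 8740 counts) are read in every mouse.

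Summed over the 7 genes, Ctrl 3 held 1585 counts, Dapa 11 held 372, Dapa 7 held 306 and Dapa 10 held 70. The other mice held 0 to 10. Of the 9 members, 6 (Adipoq, Cfd, Cidec, Lep, Plin1 and Ucp1) had their 4 highest FPKM values in these 4 mice, which for Adipoq follows from how the mice were picked. For Lep it rests on 1 count in Dapa 10 against 0 in the mice outside the 4, which the 3-count limit does not separate. Neither this count nor the share over all genes applied that limit. Over all 22558 genes, 26 had the same 4 mice at the top, or 0.115%, a share given as a description. Because 13 of 17 mice were at or under the limit, the mice formed separate clusters and no correlation of the members with Adipoq was computed. Of the 4 mice, 3 (Ctrl 3, Dapa 10 and Dapa 11) were among 7 libraries in which the FPKM of 3 other genes, each entered over 2 lines of the table, did not match their counts, and 1 was among the other 10. The part of this difference in the result was not tested.

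The proportions of the 7 genes to Adipoq were alike over the 4 mice for some genes and unlike for others. The FPKM ratio of Plin1 to Adipoq was 0.193 in Ctrl 3 (95% counting interval 0.160 to 0.233, exact Clopper-Pearson), 0.177 in Dapa 7 (0.122 to 0.255), 0.204 in Dapa 10 (0.101 to 0.405) and 0.239 in Dapa 11 (0.164 to 0.348). For Cidec it was 0.273, 0.331, 0.257 and 0.193 in the same order. The intervals of the 4 mice overlapped for both genes. For Retn the ratio was 0.292 (0.226 to 0.375) in Ctrl 3, 0.352 (0.219 to 0.550) in Dapa 7 and 0.168 (0.0795 to 0.321) in Dapa 11, and the 0 counts of Dapa 10 allow up to 0.179. These intervals cover counting error only, since reads without molecular identifiers are not independent molecules.

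For Cfd the ratio to Adipoq was 5.33 (4.63 to 6.15) in Ctrl 3, 1.22 (0.838 to 1.76) in Dapa 7, 0.743 (0.300 to 1.69) in Dapa 10 and 1.76 (1.22 to 2.55) in Dapa 11. The Ctrl 3 interval lay above all 3 others. For Lep the ratio was 0.00692 (0.00187 to 0.0179) in Ctrl 3, 0.160 (0.0985 to 0.254) in Dapa 7, 0.0217 (0.000526 to 0.135) in Dapa 10 and 0.344 (0.230 to 0.513) in Dapa 11. The Ctrl 3 interval lay below those of Dapa 7 and Dapa 11 and overlapped that of Dapa 10, which rests on 1 Lep count. Thus, per adiponectin transcript, the wild-type mouse carried more adipsin and less leptin than Dapa 7 and Dapa 11. For Ucp1 the ratio was 1.76 (1.27 to 2.44) in Dapa 11, above the intervals of Ctrl 3 (0.202 to 0.346), Dapa 7 (0.190 to 0.506) and Dapa 10 (0.222 to 1.11). With 1 wild-type and 3 treated db/db mice, differences between these mice and differences between genotypes or treatments cannot be told apart.

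**Figure D2:**
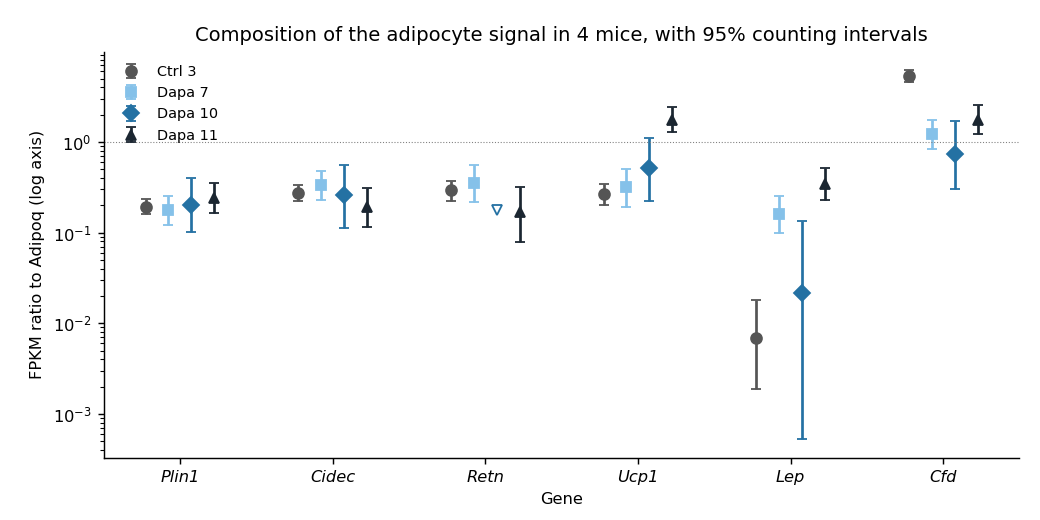
FPKM ratio of 6 genes to Adipoq (log axis) in the 4 mice with more than 3 Adipoq counts, with exact 95% counting intervals; the open triangle is the upper limit for Retn in Dapa 10, which had 0 counts. Plin1 and Cidec lie together in all 4 mice, Cfd is highest in Ctrl 3, Lep is lowest in Ctrl 3 and Ucp1 is highest in Dapa 11; Retn intervals overlap in Ctrl 3, Dapa 7 and Dapa 11.

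The 7 genes did not pass edgeR's filter on low counts in any comparison, so the fits over all genes tested 2 of the 9 members. In the fit with no filter, the adjusted p of the 7 genes ranged from 0.264 (Plin1) to 0.355 (Retn) in Dapa against Case and from 0.0962 (Lep) to 0.707 (Plin1) in Dapa against Ctrl (edgeR's quasi-likelihood test). In Case against Ctrl it was 0.0421 for Cfd and 0.0575 (Plin1) to 0.286 (Lep) for the other 6. The Cfd value rests on Ctrl 3, the 1 Ctrl mouse with any Cfd count. No fold is given for these genes, because every group held mice at 0 and the means rest on the 4 mice.

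Lpl was the member with the highest mean level. Of the 2 members tested in the fits over all genes, it was the 1 called in the comparisons with Ctrl. Its mean FPKM over 17 mice was 45.0, rank 768 of 22558 genes. In Ctrl the FPKM values were 51.2, 68.1, 67.0, 44.4 and 72.4. In Case they ran from 22.4 through a median of 31.3 to 35.1, and in Dapa from 29.4 through 46.4 to 62.7. Every Case mouse lay below every Ctrl mouse, a pattern shown by 3.46% of the 14582 genes tested (504 genes lower in Case). Of the 6 Dapa mice, 5 lay above the highest Case mouse and 4 above the lowest Ctrl mouse.

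In Case against Ctrl, Lpl was lower by a log2 fold change of -1.08 (SE 0.154, edgeR's quasi-likelihood test, Benjamini-Hochberg adjusted p = 0.00118 over all genes), with means of 30.3 ± 4.67 (SD, n = 6) and 60.6 ± 12.1 (SD, n = 5). In that comparison 13.0% of tested genes were called at an adjusted p under 0.05, 6.09% higher and 6.91% lower in Case, and 1 of the 2 members tested was among them. Lpl was called under each of the 24 alternatives tried. In Dapa against Case the log2 fold change was 0.60 (SE 0.157, unadjusted p = 0.00194, adjusted p = 0.212, edgeR), with a Dapa mean of 46.7 ± 10.8 (SD, n = 6), and the call was not made. No gene was called there (0.0%) by edgeR's quasi-likelihood test, although 1880 genes had an unadjusted p under 0.05. DESeq2 called 200 genes (1.31%), Lpl among them with an adjusted p of 0.0346.

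Without the 3 Dapa mice that carried Adipoq the log2 fold change in Dapa against Case was 0.38 (adjusted p = 0.704, edgeR). In Dapa against Ctrl the log2 fold change was -0.49 (SE 0.172, adjusted p = 0.0488, edgeR), in a comparison where 29.1% of genes were called, 14.2% higher and 14.9% lower in Dapa. With a fold above 2 between mean FPKM also required, 7.18% were called and Lpl was not. That call was lost under 17 of 23 alternatives, with adjusted p-values of 0.0184 to 0.119 over all of them, and without Ctrl 3, Dapa 7, Dapa 10 and Dapa 11 it was -0.66 (adjusted p = 0.0735, edgeR).

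Lpl was also high in mice without the adipocyte genes. Across the 13 mice at or under 3 Adipoq counts, Lpl FPKM ran from 22.4 to 72.4, and across the other 4 from 46.9 to 67.0. Within Dapa, however, the 3 mice with Adipoq held the 3 highest Lpl values (51.3 in Dapa 7, 62.7 in Dapa 10 and 46.9 in Dapa 11), above 45.9 in Dapa 12, 44.1 in Dapa 8 and 29.4 in Dapa 9. The highest Lpl value of all, in Ctrl 5, came from a mouse with 0 Adipoq counts. Beside Lpl, markers of the proximal tubule, the reabsorbing segment of the nephron, were called lower for 2 of 8 genes in Case against Ctrl (Lrp2 and Slc22a6) and for 5 of 8 in Dapa against Ctrl, beside 6.91% and 14.9% of all genes. Without the 4 mice 1 and 2 of the 8 were called, beside 6.8% and 11.2% of all genes in either direction. Markers of endothelial cells, on which the enzyme is displayed, were called for 0 of 11 in Case against Ctrl and 1 of 11 in Dapa against Ctrl (Eng, log2 fold change 0.45, adjusted p = 0.0330, edgeR), beside 13.0% and 29.1% of all genes in either direction, and for 0 of 11 without the 4 mice. The part of these cell types in the Lpl values was not tested.

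**Figure D3:**
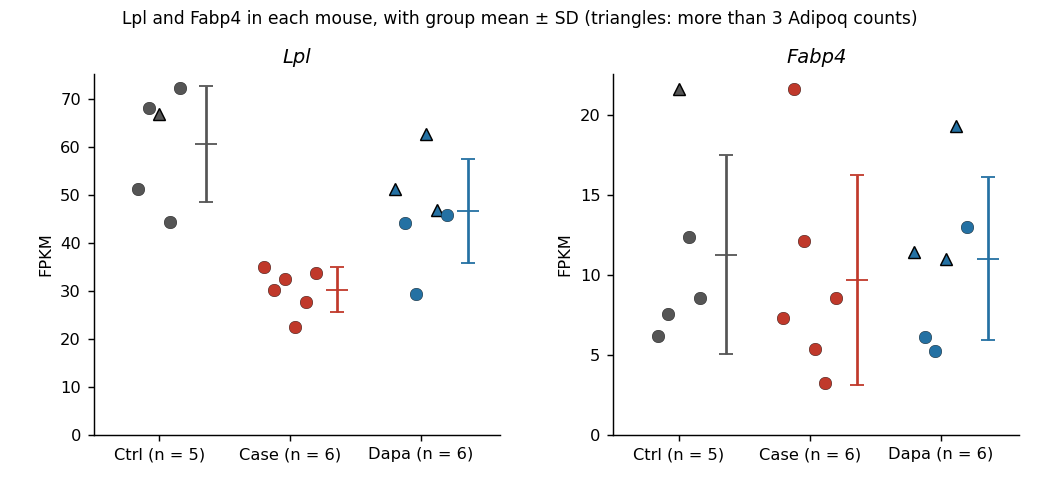
FPKM of Lpl and Fabp4 in each mouse (points), with group mean ± SD (bars); triangles are the 4 mice with more than 3 Adipoq counts. For Lpl all Case points (22.4 to 35.1) lie below all Ctrl points (44.4 to 72.4), whereas for Fabp4 the groups overlap.

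**Figure D4:**
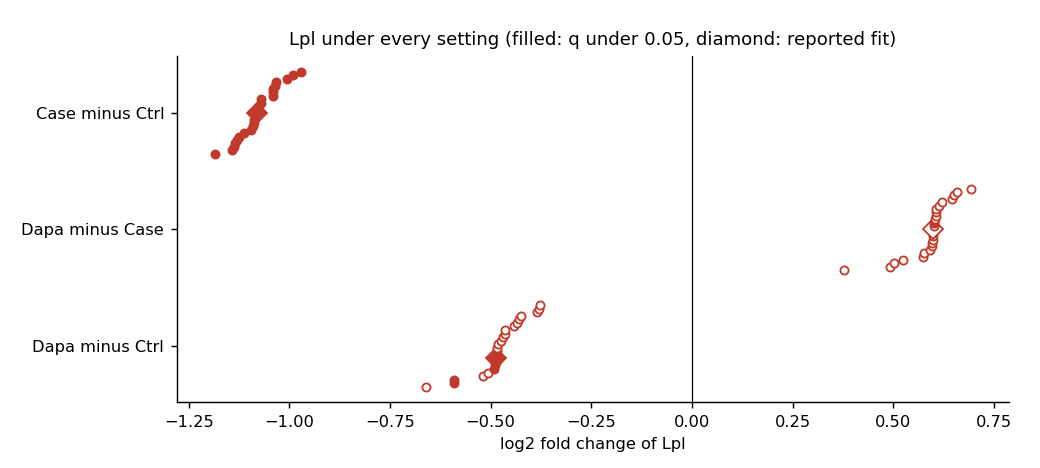
log2 fold change of Lpl in each comparison under every setting (circles, spread vertically in order of value) and in the reported fit (diamonds), filled where the adjusted p was under 0.05. Case minus Ctrl is filled throughout (-1.19 to -0.97), Dapa minus Case is open except under DESeq2, and Dapa minus Ctrl is mostly open.

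Fabp4 was read in every mouse and differed less between groups than within them. Its FPKM was 6.20, 7.54, 21.6, 12.4 and 8.54 in the 5 Ctrl mice. It ran from 3.22 through a median of 7.92 to 21.6 in Case and from 5.26 through 11.2 to 19.3 in Dapa. The mice with the most Fabp4 were Ctrl 3 and Dapa 11, which carried adipocyte genes, and Case 2 (FPKM 21.6), which had 0 Adipoq counts. The log2 fold changes were -0.30 (SE 0.430) in Case against Ctrl, 0.16 (SE 0.399) in Dapa against Case and -0.15 (SE 0.350) in Dapa against Ctrl, with adjusted p-values of 0.687, 0.897 and 0.781 (edgeR). The sign turned without Ctrl 3 to 0.08 in Case against Ctrl and to 0.25 in Dapa against Ctrl. Case 2 also held 57.8 summed FPKM of macrophage markers, against a Case range of 28.8 to 203, and 142 of endothelial markers, against 102 to 148, and the part of these cells was not tested.

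Of 43 other genes of white and brown fat listed, 40 were in the table and 26 were tested. Of the 40, 4 (10.0%, beside 0.115% of all genes) were highest in the same 4 mice, and these, singled out after their values were seen, were Cidea (a droplet protein of brown fat), Adrb3 (the β3-adrenergic receptor of adipocytes), Otop1 and Kcnk3 (2 ion channels found in brown fat). Cidea had 107 counts in Ctrl 3, 48 in Dapa 11, 12 in Dapa 7, 12 in Dapa 10 and at most 3 elsewhere. Adrb3 had 38, 9, 5 and 2 in that order and at most 1 elsewhere.

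Of the 26 tested, 5 were called in Case against Ctrl (3 higher and 2 lower, beside 13.0% of all genes), 0 in Dapa against Case and 11 in Dapa against Ctrl (7 higher and 4 lower, beside 29.1% of all genes). Their median log2 fold changes were -0.15, 0.21 and 0.10, beside 0.03, -0.01 and 0.02 over all genes. Without Ctrl 3 the median in Case against Ctrl turned to 0.15, and without the 3 Dapa mice that in Dapa against Case was 0.13. Slc2a4, the insulin-responsive glucose transporter GLUT4, was higher by 0.72 (SE 0.129, adjusted p = 0.00430, edgeR) in Case and by 1.12 (SE 0.147, adjusted p = 0.000396, edgeR) in Dapa than in Ctrl. Its FPKM was 2.07 to 3.70 in Ctrl, 4.49 to 5.82 in Case and 5.77 to 8.70 in Dapa. Fabp3, the heart form of the fatty acid-binding proteins, was higher by 0.73 in Case and 0.55 in Dapa (adjusted p = 0.00565 and 0.0196, edgeR). Cebpa, a transcription factor of adipocyte differentiation that is also active elsewhere, was lower by -0.62 in Case and -1.05 in Dapa (adjusted p = 0.0232 and 0.00505, edgeR).

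Car3, a carbonic anhydrase abundant in adipocytes and muscle, was lower in Case than in Ctrl by -1.78 (SE 0.547, adjusted p = 0.0492, edgeR). Its FPKM was 26.2 in Ctrl 3 and 4.83 to 8.41 in the other Ctrl mice. Without Ctrl 3 the value was -1.06 with an adjusted p of 0.173 (edgeR). The call was lost on leaving out any of 9 of the 11 mice (adjusted p from 0.0135 to 0.173 over all 11, edgeR). In Dapa against Ctrl, Cpt1b, the muscle form of carnitine palmitoyltransferase, was higher by 0.82 and Ppargc1a, a coactivator of mitochondrial genes, by 0.33 (adjusted p = 0.0258 and 0.0184, edgeR), and both calls were lost without the 4 mice (0.79 and 0.32, adjusted p = 0.164 and 0.123, edgeR). Without the 4 mice, 4 fat genes were called in Dapa against Ctrl in place of 11, beside 11.2% of all genes in place of 29.1%.

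Genes listed beside Lpl, which were partners of lipoprotein lipase, related lipases and lipid receptors, were lower where they were called in Case against Ctrl. Of 14 listed, 10 were tested, and 0 were called higher and 3 lower (Cd36, Lipg and Vldlr, a lipoprotein receptor), beside 6.91% of all genes called lower, with a median log2 fold change of -0.35 beside 0.03 over all genes. Without Ctrl 3, 2 were called, Vldlr no longer among them, beside 6.8% of all genes in either direction. Cd36, a fatty acid translocase, was lower by -1.92 in Case and -1.75 in Dapa than in Ctrl (adjusted p = 0.000696 and 0.00157, edgeR), with FPKM of 24.7 to 53.9 in Ctrl, 7.83 to 19.0 in Case and 7.20 to 23.4 in Dapa. Both groups of db/db mice lay wholly below Ctrl, as did 3.46% of genes in Case and 4.74% in Dapa. Apoc1, an apolipoprotein of triglyceride-rich particles, was higher in Dapa than in Ctrl by 1.23 (SE 0.385, adjusted p = 0.0299, edgeR), with FPKM of 0.725 to 3.21 in Ctrl and 2.13 to 6.14 in Dapa. Lipg, the endothelial lipase, was lower by -3.30 and -2.59 (adjusted p = 0.00959 and 0.00382, edgeR), from an FPKM of only 0.260 to 1.82 in Ctrl. In Dapa against Ctrl 1 was called higher and 3 lower, beside 29.1% of all genes. Without the 4 mice 1 was called there, beside 11.2% of all genes. In Dapa against Case 0 of 9 were called.

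Of the fatty acid-binding protein family, 4 of 9 listed genes were tested. Besides Fabp3, Fabp5, the epidermal form, was lower in Dapa than in Ctrl by -0.89 (SE 0.176, adjusted p = 0.00314, edgeR). Of 10 lipid droplet genes, Cideb, a relative of Cidec made in liver and kidney, was lower by -0.71 in Case and -0.68 in Dapa than in Ctrl (adjusted p = 0.00371 and 0.000708, edgeR), with Ctrl values of 72.3 to 76.5 FPKM and no overlap with either db/db group. Plin2, the perilipin of non-adipose cells, and Abhd5, an activator of triglyceride lipase, were lower in Dapa than in Ctrl by -0.59 and -0.47 (adjusted p = 0.0234 and 0.0218, edgeR). In that comparison 3 of the 9 droplet genes tested were called lower and 1 higher (Pnpla2, the triglyceride lipase ATGL), beside 29.1% of all genes. Without the 4 mice 2 (Cideb and Plin2) were called, beside 11.2% of all genes. Plin2 was read at 7.39 FPKM or more in every mouse, including those at 0 for Plin1.

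Of the 6 adipokine receptors tested, 0 were called in Case against Ctrl and in Dapa against Ctrl, beside 13.0% and 29.1% of all genes (edgeR's quasi-likelihood test). Adipor1, a receptor of adiponectin, had FPKM of 17.3 to 20.3 in Ctrl, 16.8 to 18.5 in Case and 15.9 to 19.4 in Dapa. Cap1, proposed as a receptor of resistin, had 12.3 to 23.7, 12.0 to 30.8 and 13.5 to 26.9. In the resistin family, Retnla was read in Ctrl 3 (FPKM 1.49), Dapa 7 (0.450) and Case 3 (0.205) and listed at 0 elsewhere. Retnlg, known from neutrophils, had its highest values in Case (up to 3.03), and neither gene passed the filter on low counts with all mice.

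Genes were also ranked by likeness to the adipocyte genes. Over 17 mice, the log2(FPKM + 0.1) of 10 genes, of those reaching a mean FPKM of 1 in at least 1 group, correlated best with the mean of Adipoq, Plin1, Cidec and Cfd. They were Cidea (r = 0.95), Hp (0.87), Fasn (0.87), Thrsp (0.80), Upk3a (0.79), Upk2 (0.79), Arhgef10l (0.79), Cnn1 (0.76), Myh11 (0.75) and Upk1b (0.74). The genes were picked for this likeness, the values share the libraries and rest on the 4 mice, and for some genes the mean FPKM of 1 was reached through those mice, so their levels there are a description and no finding. Fasn (fatty acid synthase) and Thrsp are lipogenic genes, and Hp is haptoglobin, a plasma protein. Upk3a, Upk2 and Upk1b encode uroplakins, the plaque proteins of the urothelium that lines the renal pelvis, and Cnn1 and Myh11 mark smooth muscle.

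Upk3a FPKM was 7.38 in Ctrl 3, 7.14 in Dapa 11, 2.31 in Dapa 7 and 2.04 in Dapa 10. Outside these it was 2.24 in Case 6, 0.445 in Case 1, 0.660 in Case 2, 0.499 in Case 3, 0.624 in Dapa 12 and 0 in the other 8 mice. Case 6, which had 0 Adipoq counts, also had Upk1b at 4.07 and Upk2 at 1.87. Dapa 12, with 2 Adipoq counts, had Upk1b at 1.60 and Upk2 at 1.14. Uroplakin mRNA was thus also read in mice at or under 3 Adipoq counts. Myh11 was 10.8, 14.9, 8.60 and 13.5 in the 4 mice in that order and 3.15 to 7.32 elsewhere. Cnn1 was 2.29, 4.02, 1.36 and 2.15 in the same order and at most 1.31 elsewhere. Like Cidea, Myh11 and Cnn1 thus had their 4 highest values in these mice.

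**Figure D5:**
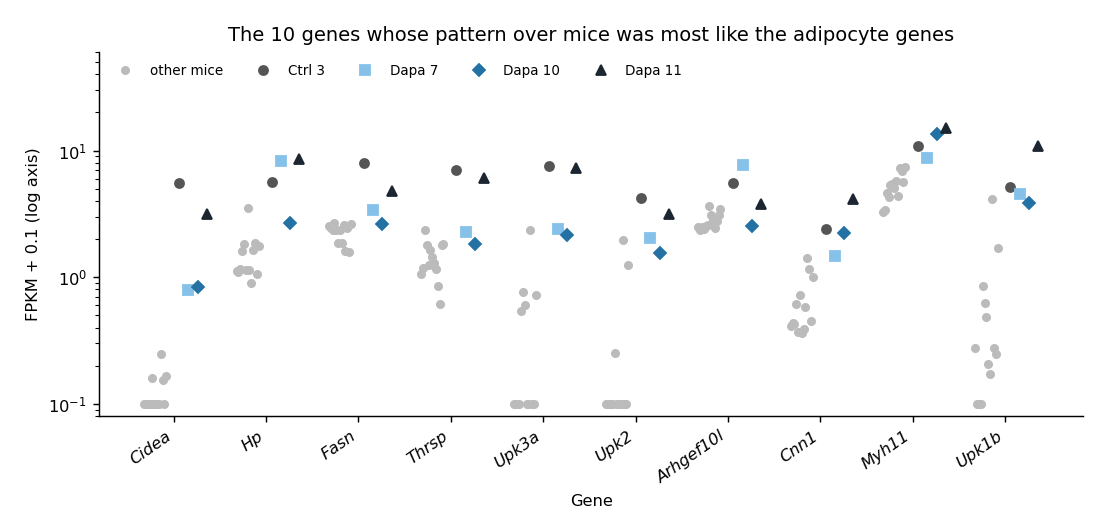
FPKM + 0.1 (log axis) of the 10 genes most like the adipocyte pattern, in the 4 mice with more than 3 Adipoq counts (coloured symbols) and the 13 others (grey). Cidea, Cnn1 and Myh11 are higher in each of the 4 mice than in any other, Cnn1 narrowly (FPKM 1.36 in Dapa 7 against 1.31 in Case 6). The uroplakin genes Upk3a, Upk2 and Upk1b are high in the 4 mice and in Case 6.

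Markers of other tissues that could lie beside a kidney were compared over the same mice. None of the 10 adrenal, 7 skeletal muscle, 6 mesothelial, 11 stromal, 9 macrophage or 6 neutrophil genes in the table had the same 4 mice at the top, nor any of the 8 proximal tubule, 8 distal nephron or 5 podocyte genes. Over all genes the share was 0.115%, so lists this short would seldom hold such a gene, and the absence is a description. Smooth muscle and urothelium had no list. Summed FPKM of the adrenal list was 2.64 in Ctrl 3 and 2.90 in Dapa 7, the lowest values of their groups, but 10.2 in Dapa 10 and 8.64 in Dapa 11, within a Dapa range that reached 11.6. Hsd3b1, a steroid dehydrogenase on that list, was higher in Case and Dapa than in Ctrl by 1.72 and 4.42 (adjusted p = 0.0404 and 0.00238, edgeR), the 1 gene of 3 tested that was called, beside 13.0% and 29.1% of all genes. In Dapa 7 its FPKM was 0.0222, on 1 count and below the lowest Ctrl value of 0.0783, whereas the other Dapa mice ran from 2.31 (Dapa 12) to 7.10 (Dapa 10). The call in Case was kept in 4 of the 11 fits that left out a mouse, and without Ctrl 3 the value was 1.56 (adjusted p = 0.101, edgeR). The mesothelial list, which includes Gpm6a, summed to 44.2 in Ctrl 3 (range of Ctrl 27.5 to 44.2), 33.7 in Dapa 11, 30.5 in Dapa 7 and 27.7 in Dapa 10, the highest values of their groups (Dapa range 17.1 to 33.7). Gpm6a was lower by -0.82 in Case and -0.90 in Dapa than in Ctrl (adjusted p = 0.00200 and 0.00332, edgeR), and was the 1 gene of the 4 tested that was called in each comparison, beside 13.0% and 29.1% of all genes. The median log2 fold change of the list was 0.07 and 0.44, and without the 4 mice it was 0.62 and 0.00098, with Krt19 also called in Dapa against Ctrl.

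Stromal markers, which include those of preadipocytes, summed to 108 in Ctrl 3, within the Ctrl range of 94.3 to 120. Of the 11, 1 was called higher in Case (Mgp, 0.93, adjusted p = 0.0206) and 3 in Dapa against Ctrl, among them Pdgfra (1.07, adjusted p = 0.0173) and Dcn (0.70, adjusted p = 0.0341, all edgeR), beside 6.09% and 14.2% of all genes called higher, and 0 of 11 were called without the 4 mice. Macrophage markers were called for 1 of 9 in both comparisons with Ctrl (Cd14, 1.41 in Case and 1.04 in Dapa, adjusted p = 0.0284 and 0.0190, edgeR), beside 13.0% and 29.1% of all genes, and for 0 of 9 without the 4 mice. Of the neutrophil and skeletal muscle lists 2 genes each were tested and 0 called. Among nephron genes, Lrp2, the endocytic receptor megalin, was lower by -0.98 in Case and -1.25 in Dapa, and Calb1, the calcium-binding protein of the distal tubule, was higher by 1.55 and 1.62 (adjusted p = 0.00407, 0.000557, 0.00347 and 0.000205, edgeR). Of the 8 distal genes 3 were called higher in Case and 5 in Dapa, and of 5 podocyte genes 2 in each, with Nphs1 (nephrin) higher by 0.59 and 0.67 (adjusted p = 0.00361 and 0.000910, edgeR). Of all genes 6.09% were higher in Case and 14.2% in Dapa, and without the 4 mice 1 and 3 distal genes and 1 podocyte gene in each comparison were called. No gene of these lists was called in Dapa against Case by edgeR's quasi-likelihood test. Without the 4 mice, 8 of the 18 calls of named genes outside the members were lost in Case against Ctrl and 14 of 27 in Dapa against Ctrl, while calls over all genes fell from 1895 to 1002 and from 4260 to 1650. In Case against Ctrl this left out 1 mouse, Ctrl 3. Leaving out Ctrl 1, Ctrl 2 or Ctrl 5, each at 0 Adipoq counts, gave 1160, 1150 and 1125 calls. Leaving out Ctrl 4 gave 1911 calls, and leaving out a Case mouse gave 1366 to 2154. The cause of the fall was not tested. Every lost value kept its sign, at 0.598 to 0.984 and 0.660 to 1.23 times its log2 fold change with all mice. Among the lost calls of Dapa against Ctrl, Lipg went from -2.59 to -2.39 and Apoc1 from 1.23 to 1.51.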

How the data were processed

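Total RNA of 17 mouse kidneys was enriched with oligo(dT) beads and made into stranded libraries. Per the methods and the submitters' processing notes, the authors aligned reads to mm10 with HISAT2 and counted them per gene with StringTie. The strand setting of the counting is not given in the sources used here. The deposited table held raw read counts and FPKM per gene and mouse, both used here. The deposited FPKM followed from count, gene length and library total within 0.0882%, so no TMM scaling between libraries was found in them. Of 22561 genes, 3 entered over 2 lines were left out. No columns of the authors' own comparisons were used.

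Groups were compared in pairs with edgeR 4.0.16 in R 4.3.3 (TMM, filterByExpr, quasi-likelihood test, Benjamini-Hochberg over all genes tested, call at adjusted p under 0.05). Alternatives used DESeq2 1.42.0, limma 3.58.1 with pseudocounts of 1 and 0.1, other scalings and filters, a term for the 7 libraries with mismatched entries, a block for the replicate number, and fits without 1 mouse at a time. Leaving out the 4 libraries with more than 3 counts of Adipoq was added after seeing the data. The fit was tested on simulated counts. Library totals were 13039535 to 17779635 counts. A count of 0 was read as up to 3 counts, and intervals of ratios are exact at 95%. Ratios and levels cover counting error or the spread between mice only. Promoter sequences came from RefSeq (GRCm38.p6), and 7 of the 9 genes had an entry.

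Named were all 9 members, up to 3 genes of each list with the largest change among those called in any comparison (otherwise the 2 with the highest mean FPKM), and the 10 genes most like the mean of Adipoq, Plin1, Cidec and Cfd. Vldlr, Pnpla2, Krt19, Lepr, Adrb3, Otop1 and Kcnk3 were named after their values were seen. Of the genes first listed, 1 was left out of the lists and is not reported here. The members and lists were chosen with earlier results of these data known.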

Additional observations from a re-analysis of the deposited data

Results flagged for a closer look

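In groups of 5 or 6 mice, 24 of 131 groups over 45 genes held 1 mouse whose gap to its nearest neighbour was large for the range of the group (Dixon's criterion at 95%). For values that follow a normal distribution chance gives about 1 group in 20, and whether the FPKM values follow one was not tested. That rate does not hold for 8 of the 24, in which every other mouse of the group was at 0 and any count meets the criterion, and the groups are not independent, since the genes share mice. Of the 24, 10 concerned the adipocyte genes and 11 concerned one of the 4 mice with more than 3 Adipoq counts.

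Mouse Ctrl 3 stood above the other Ctrl mice in FPKM for Adipoq (9.83), Plin1 (1.90), Cfd (52.4), Ucp1 (2.61), Cidec (2.68), Retn (2.87) and Lep (0.0680), and also for Car3 (26.2) and Retnla (1.49). Dapa 11 stood above the other Dapa mice for Ucp1 (4.94). Among Case mice, Case 3 stood apart for Cfd (0.332), on 5 counts, and Case 4 for Cidec (0.154), on 8 counts.

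Outside the adipocyte genes, Case 6 was highest for Car3 (7.56), Case 3 for Retnla (0.205, on 2 counts, within the limit that a count of 0 allows), Case 4 for Hsd3b1 (1.52) and Case 1 for Apoc1 (13.1). Ctrl 4 was highest for Cpt1b (14.3), Ctrl 5 for Adipor1 (20.3) and Ctrl 2 for S100a9 (1.59). Among Dapa mice, Dapa 7 stood apart for Retnla (0.450), Dapa 9, as the lowest, for Eng (7.11) and Dapa 8 for Retnlg (1.53), S100a9 (4.35) and S100a8 (1.58).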

How the results depend on the processing

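The lower Lpl of Case against Ctrl was called under each of its 24 alternatives. The call of Lpl in Dapa against Ctrl was lost (0 members called) under median ratio and upper quartile scaling, no filter, a minimum of 10 counts, both limma fits on log2 FPKM, the term for the 7 mismatched libraries, a fold above 2 and without the 4 libraries with Adipoq, and 0 to 1 members were called with a mouse left out. In Dapa against Case, DESeq2 called 1 member (Lpl). With no filter, 2 members were called in Case against Ctrl, the second being Cfd.

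Over all genes, Case against Ctrl gave 1219 calls with the term, 707 with the replicate block, 1002 without the 4 libraries and 1002 (without Ctrl 3) to 2154 (without Case 5) with a mouse left out. Dapa against Case gave 200 calls by DESeq2, 125 by edgeR's exact test, 5 in the fit of all 3 groups and 0 to 7 with a mouse left out (7 without Dapa 7). Dapa against Ctrl gave 1650 without the 4 libraries. Other fat genes called in Case against Ctrl numbered 3 with the term, 3 with the block and 3 to 6 with a mouse left out; in Dapa against Ctrl they numbered 4 without the 4 libraries and 7 to 11 with a mouse left out. The cause of these shifts was not tested.

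The log2 fold change of Fabp4, never called, turned to 0.0839 in Case against Ctrl without the 4 libraries, with -0.70 to 0.0839 when a mouse was left out. In Dapa against Case it turned to -0.0773 with the term and -0.27 without the 4 libraries, with -0.0560 to 0.56 when a mouse was left out, and in Dapa against Ctrl the range was -0.37 to 0.25. Of 1048 alternatives for 45 called values of other named genes, 915 kept the call, 133 lost it and 0 reversed. Same-numbered Ctrl and Case mice did not deviate together (r from -0.06 to -0.01, 0 of 5 pairs over 0.1), so mice share only a number, and Lpl kept an adjusted p of 0.0101 (edgeR) under the block. The planned correlations of the members across mice were not run, because 13 mice lay at or under 3 Adipoq counts.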
